A study of Mus musculus with 4 samples.

Results

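Ribosome biogenesis and RNA polymerase I were examined through 54 genes, chosen by symbol from the 16142 genes of the deposited expression table, and all 54 were found there. The list holds 6 genes of RNA polymerase I and its factors, 4 abundant nucleolar proteins, 9 proteins of small nucleolar ribonucleoproteins (snoRNPs), 18 genes of the small subunit processome and 40S maturation, 12 genes of 60S assembly and 5 DEAD and DEAH box helicases. RNA polymerase I transcribes the ribosomal DNA repeats in the nucleolus into a long precursor RNA. This precursor is folded, chemically modified under the guidance of small nucleolar RNAs, cut and packed with ribosomal proteins into the small (40S) and large (60S) subunits. Activated T cells enlarge and divide, and ribosome production is part of that growth.

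The study expressed a form of Regnase-1 that resists cleavage in T cells, with regulatory T cells as its main subject, and the libraries read here are of CD4+ T cells. Regnase-1, the product of Zc3h12a, is an RNase that degrades mRNAs of activated immune cells, and the R111A mutant lacks the site cut by the MALT1 paracaspase. RNA-seq gave 2 libraries of WT and 2 of R111A cells. WT libraries came from wild type B6 mice. R111A libraries came from Cd4CreERT2LSL-R111Afl/fl mice, in which Cre driven from Cd4 removes a STOP cassette under tamoxifen, so that R111A and EGFP are made from the CAG promoter at Rosa26, beside the intact endogenous gene. Tamoxifen was given i.p. at 75 mg/kg for 5 days. The methods name tamoxifen-treated WT mice as controls in other assays, and the labels do not say separately whether the WT mice of these libraries received it. CD4+ T cells were isolated from spleen, sorted by FACS and kept for 12 h with antibodies to CD3 (5 µg/mL) and CD28 (1 µg/mL). The methods give mice of both sexes at 6 to 12 weeks of age unless stated otherwise, and the labels give neither for these libraries. Nothing in the labels says that the replicates came from separate mice, so the p-values measure the spread between these libraries, which may be technical.

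Values are FPKM, a read number divided by gene length and library size, as estimated by the authors, and the table gives no read totals. Zc3h12a stood at 17.0 and 15.7 FPKM in WT, against 196 and 131 FPKM in R111A. Both R111A libraries were far above both WT libraries, as their labels say (log2 fold change 3.22, standard error 0.19, adjusted p = 9.2e-06 by limma). The transgene and the endogenous gene cannot be told apart in these values.

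Of the 7 CD4+ T cell markers read, Cd3g had the highest mean of the 4 libraries, at 454 and 465 FPKM in WT and 289 and 313 FPKM in R111A. Cd8a was at or below 0.20 FPKM in every library. Cd4 itself was lower in R111A, at 158 and 131 FPKM in WT and 70.7 and 51.4 FPKM in R111A (log2 fold change -1.24, adjusted p = 0.00057 by limma). Of the 7 markers 4 were lower and 1, Cd3d, was higher (32.1% and 21.2% of all genes tested). Cd3d was at 205 and 214 FPKM in WT, against 275 and 267 FPKM in R111A (log2 fold change 0.37, adjusted p = 0.029 by limma). For Cd3e no change was detected (log2 fold change -0.08, adjusted p = 0.69 by limma). The label of CD4+ T cells was met in all 4 libraries, while markers of activation state differed between the groups and are given with the list results below.

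The 54 ribosome biogenesis genes were well expressed. Their mean over the 4 libraries ranged from 12.8 FPKM for Ddx51 to 3314 FPKM for Npm1, with a median of 96.5 FPKM, against a median of 14.9 FPKM over the 9831 genes tested, and all 54 passed the filter of a mean of at least 1 FPKM. Most were lower in R111A CD4+ T cells. By limma, 33 of the 54 genes (61.1%) were lower in R111A at an adjusted p under 0.05, against 32.1% of all genes tested, and 1 gene, Gnl3, was higher (1.85%), against 21.2% of all genes tested. In 46 genes both R111A libraries were below both WT libraries (46.3% of all genes tested), and in 4 genes both were above (32.0% of all genes tested). The median log2 fold change of the 54 genes was -0.47, against -0.12 over all genes tested.

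The changes were mostly of modest size. With a 2-fold change also required, 5 of the 54 genes were lower (9.26%), namely Noc4l, Polr1c, Npm1, Ncl and Dkc1, which is close to the 8.34% of all genes tested that met the same rule. Such 2-fold higher calls made up 8.52% of all genes tested and none of the 54, where the highest log2 fold change was 0.37. Both shares depended on the scaling of the libraries, as given further down.

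**Figure D1:**
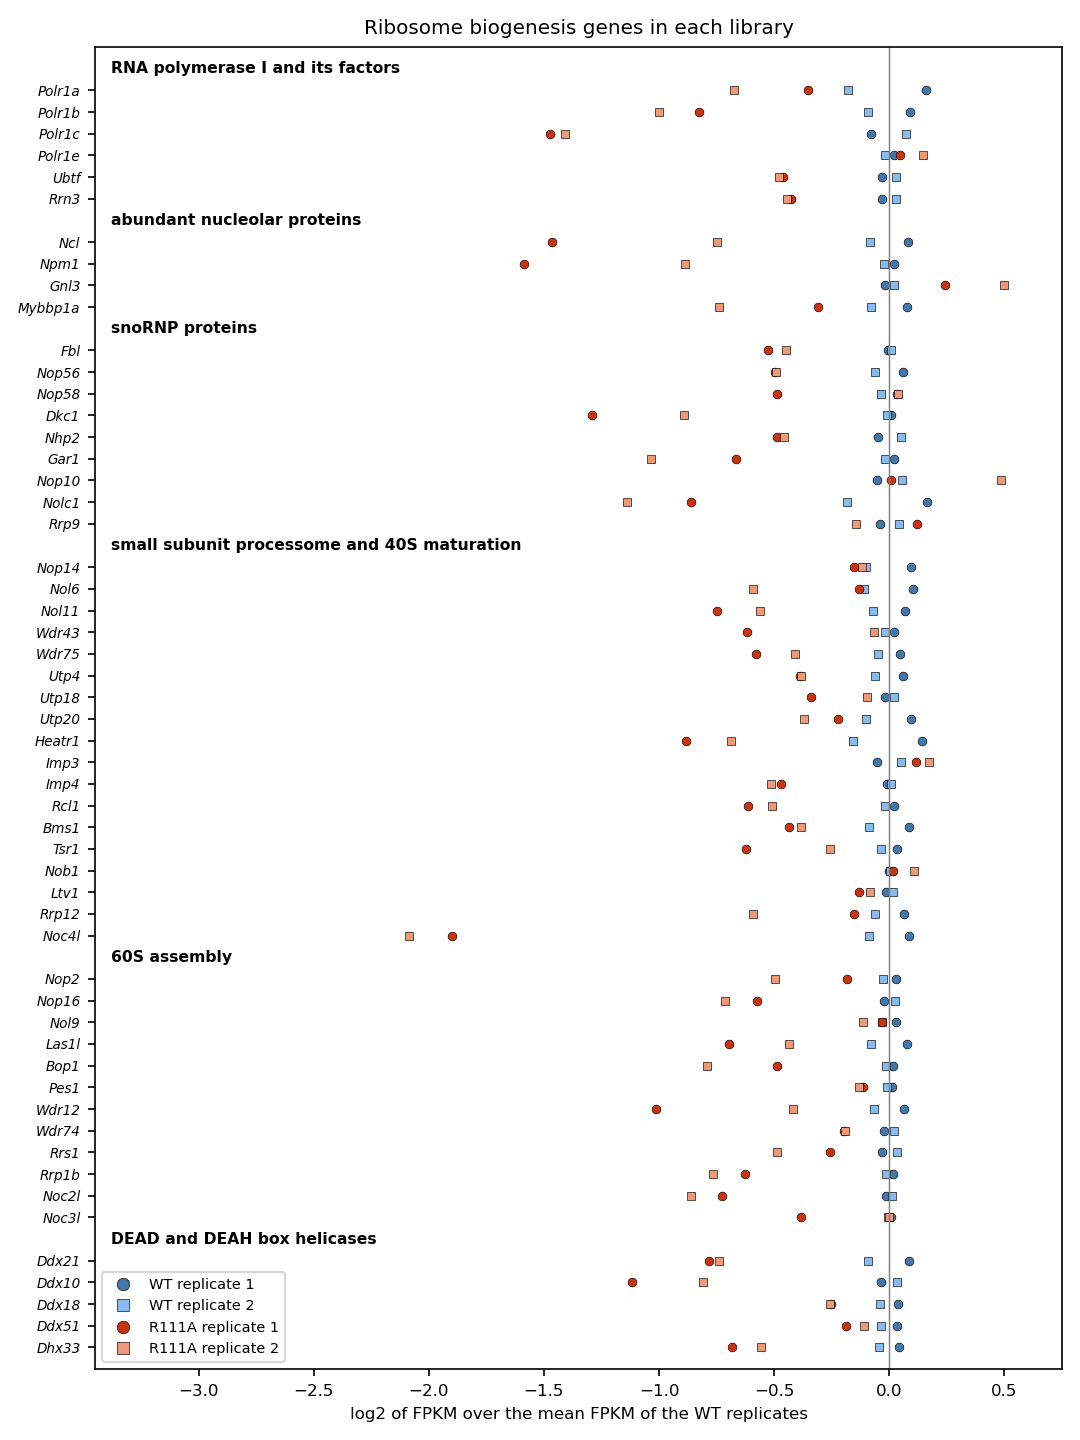
Each row is 1 of the 54 genes, grouped by role, and each point is 1 library, placed by the log2 of its FPKM over the mean FPKM of the WT replicates (circles, replicate 1; squares, replicate 2; blue, WT; red, R111A). In 46 genes both R111A points lie to the left of both WT points, and the spread of the R111A pair is widest in Npm1, Ncl and Wdr12.

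The R111A replicates differed more from each other than the WT replicates did. Over the 54 genes the median absolute difference on the log2(FPKM + 1) scale was 0.07 within the WT pair and 0.17 within the R111A pair, and the group means differed by a median of 0.47. The R111A replicates were over 1.3-fold apart in 11 genes, and the WT replicates in 0 genes. Neither R111A library was the lower throughout, since R111A replicate 1 was the lower of the pair in 32 of the 54 genes. Across the 54 genes, the fold change was not related to expression level (Spearman's rho -0.01 between log2 mean FPKM and log2 fold change, over genes that share the same 4 libraries).

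The RNA polymerase I genes of the list were mostly lower, though further genes of the enzyme and its factors, given further down, were divided. Of the 6 genes of this role, 5 were lower at an adjusted p under 0.05 (32.1% of all genes tested), and the median log2 fold change was -0.48. Polr1a and Polr1b encode the large subunits that form the active centre. Polr1a was at 41.7 and 33.0 FPKM in WT, against 29.3 and 23.4 FPKM in R111A. Both R111A values were below both WT values, but the gap between 33.0 and 29.3 FPKM was smaller than the distance within the WT pair (log2 fold change -0.49, standard error 0.17, adjusted p = 0.037 by limma). Polr1b was at 66.5 and 58.5 FPKM in WT, against 35.3 and 31.2 FPKM in R111A. Here the groups were well apart, and R111A held 53.2% of the WT mean (log2 fold change -0.89, standard error 0.14, adjusted p = 0.00091).

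Polr1c, whose product is a subunit of both RNA polymerase I and RNA polymerase III (NCBI gene 20016; chromosome 17 from 46243920 to 46248045 of GRCm38, minus strand), changed the most in this role. It was at 163 and 181 FPKM in WT, against 61.9 and 64.8 FPKM in R111A. The R111A replicates were close to each other and at 36.8% of the WT mean (log2 fold change -1.43, standard error 0.13, adjusted p = 5.1e-05). Polr1e, which encodes an RNA polymerase I specific subunit, was at 27.4 and 26.7 FPKM in WT, against 27.9 and 29.9 FPKM in R111A. The groups lay within a few FPKM of each other, and no change was detected (log2 fold change 0.09, standard error 0.13, adjusted p = 0.57), with a sign that turned negative when the values were rescaled to TPM (log2 fold change -0.23).

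Ubtf encodes the factor that binds along the ribosomal DNA repeats and opens them for transcription. It was at 121 and 126 FPKM in WT, against 89.4 and 88.3 FPKM in R111A. The replicates of each group were nearly equal and the groups did not overlap (log2 fold change -0.47, standard error 0.12, adjusted p = 0.012). Rrn3 encodes the factor that links the polymerase to its promoter, and it was at 39.8 and 41.4 FPKM in WT, against 30.2 and 29.9 FPKM in R111A. Both R111A libraries were again lower by a similar amount (log2 fold change -0.42, standard error 0.13, adjusted p = 0.022). The calls of Polr1a, Ubtf and Rrn3 were lost with median-of-ratios factors, with quantile normalization and without either WT library, and over all 16 alternatives their adjusted p-values ranged from 0.0011 to 0.40, from 0.00021 to 0.19 and from 0.00057 to 0.29. Without WT replicate 1 and without WT replicate 2, the log2 fold changes were -0.32 and -0.65 for Polr1a, -0.50 and -0.44 for Ubtf and -0.45 and -0.39 for Rrn3. Polr1a also lost its call with no filter, without R111A replicate 2 (log2 fold change -0.33) and, like Rrn3, with equal sums over the genes other than cytosolic ribosomal proteins. Polr1b and Polr1c kept theirs under all 16.

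The abundant nucleolar proteins held both the genes that changed most in absolute terms and the only gene that was higher. Npm1 encodes nucleophosmin, a histone and ribosome chaperone that shuttles between nucleolus and cytoplasm (NCBI gene 18148; chromosome 11 from 33152498 to 33164142, minus strand). It was at 4683 and 4542 FPKM in WT, against 1536 and 2496 FPKM in R111A. The WT replicates were alike, and both R111A libraries were well below them although they differed from each other (log2 fold change -1.24, standard error 0.21, adjusted p = 0.0014 by limma). Ncl encodes nucleolin, which binds the precursor rRNA (NCBI gene 17975; chromosome 1 from 86344719 to 86359455, minus strand), and it was at 727 and 647 FPKM in WT, against 249 and 409 FPKM in R111A. As with Npm1, replicate 1 was the lower R111A library, and the groups did not overlap (log2 fold change -1.10, standard error 0.21, adjusted p = 0.0028). Without R111A replicate 1 the log2 fold changes of Npm1 and Ncl were -0.89 and -0.74, so that neither reached 2-fold, and Ncl was also short of it with median-of-ratios factors (-0.97) and quantile normalization (-0.95). Of the 50-base stretches in annotated Npm1 transcripts, 24.3% also occur in transcripts of other genes, among them 10 pseudogenes, so reads could be split between copies.

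Gnl3 encodes nucleostemin, a nucleolar GTP-binding protein (NCBI gene 30877; chromosome 14 from 31012433 to 31019131, minus strand). It was at 191 and 197 FPKM in WT, against 229 and 274 FPKM in R111A. Both R111A libraries were above both WT libraries, and the change passed the test narrowly (log2 fold change 0.37, standard error 0.13, adjusted p = 0.046). This call was lost under 7 of 16 alternatives, rescaling to TPM among them (log2 fold change 0.04), with adjusted p-values between 0.0058 and 0.84. It was lost without WT replicate 1, WT replicate 2 or R111A replicate 2 (log2 fold changes 0.35, 0.39 and 0.24). Gnl3 overlaps Pbrm1 on the other strand, and the sources used here do not say whether reads were counted by strand. Mybbp1a, the remaining gene of this role, was lower (log2 fold change -0.52, adjusted p = 0.026).

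Of the 9 snoRNP protein genes, 6 were lower (66.7%, against 32.1% of all genes tested), with a median log2 fold change of -0.49. These proteins form the box C/D particles, which methylate rRNA, and the box H/ACA particles, which turn uridine into pseudouridine. Fbl, the methyltransferase of the C/D particles and the most abundant gene of this role by the mean of the 4 libraries, was at 582 and 588 FPKM in WT, against 405 and 428 FPKM in R111A. Replicates were close to each other and the groups were apart (log2 fold change -0.49, standard error 0.12, adjusted p = 0.0086), though the call was lost without WT replicate 1 or WT replicate 2 (log2 fold changes -0.50 and -0.48; adjusted p from 0.00011 to 0.097 over the alternatives). Nop56 and Nop58 form the core of the same particle, with Nop56 at a log2 fold change of -0.49 (adjusted p = 0.0091) and Nop58 at -0.22 (adjusted p = 0.30). For Nop58 the groups overlapped, with 378 FPKM in R111A replicate 2 against 377 FPKM in WT replicate 1, and without R111A replicate 1 the sign was positive (log2 fold change 0.04).

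Dkc1 encodes dyskerin, the pseudouridine synthase of the H/ACA particles (NCBI gene 245474; chromosome X from 75095854 to 75109776, plus strand). It was at 177 and 175 FPKM in WT, against 72.2 and 95.2 FPKM in R111A. R111A libraries held 47.4% of the WT mean, and the R111A replicates were much closer to each other than to WT (log2 fold change -1.08, standard error 0.15, adjusted p = 0.00058). Dkc1 did not reach 2-fold without R111A replicate 1 (log2 fold change -0.88), with median-of-ratios factors (-0.95), quantile normalization (-0.86) or equal sums without cytosolic ribosomal proteins (-0.99), though it stayed called. Its partners in the H/ACA core did not move alike. Gar1 was lower by a log2 fold change of -0.84 (adjusted p = 0.0019) and Nhp2 by -0.47 (adjusted p = 0.011). Nop10 was at 377 and 407 FPKM in WT, against 394 and 549 FPKM in R111A. R111A replicate 1 lay between the WT libraries and only R111A replicate 2 was higher (log2 fold change 0.25, standard error 0.17, adjusted p = 0.24), while rescaling to TPM turned the sign negative (log2 fold change -0.09). Without R111A replicate 1 the log2 fold change of Nop10 was 0.49, and without R111A replicate 2 it was 0.007. Each of these values rests on a single R111A library. Nolc1, a chaperone of snoRNPs, was lower (log2 fold change -0.98, adjusted p = 0.0012), and Rrp9, a protein of the U3 particle, had a log2 fold change of -0.01 (adjusted p = 0.95), which was positive with median-of-ratios factors, quantile normalization and equal sums (0.12, 0.20 and 0.08), and without WT replicate 2 or R111A replicate 2 (0.03 and 0.12).

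The small subunit processome assembles on the 5′ part of the precursor and prepares the 40S subunit. Of its 18 genes, 9 were lower (50%, against 32.1% of all genes tested), with a median log2 fold change of -0.37. Noc4l, which works with Nop14 in 40S maturation (NCBI gene 100608; chromosome 5 from 110648419 to 110653382, minus strand), had the largest change among the 54 genes. It was at 112 and 98.9 FPKM in WT, against 28.2 and 24.7 FPKM in R111A. Both R111A libraries stood at about the same low level, 25.1% of the WT mean (log2 fold change -1.95, standard error 0.14, adjusted p = 1.8e-05 by limma), while the log2 fold change stayed between -2.28 and -1.79 over the 16 alternatives. Its partner Nop14 had a log2 fold change of -0.13 (adjusted p = 0.42), which was 0.12 with quantile normalization and about 0 with median-of-ratios factors.

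Noc4l lies head to head with Ddx51, a helicase gene of 60S assembly that begins 49 bases away on the plus strand (chromosome 5 from 110653432 to 110663019, RefSeq starts). Ddx51 was at 13.8 and 13.1 FPKM in WT, against 11.8 and 12.5 FPKM in R111A. The R111A libraries were slightly below both WT libraries, and no change was detected (log2 fold change -0.14, standard error 0.14, adjusted p = 0.41), though with TPM it was called lower (-0.45, adjusted p = 0.023, with a range from 0.023 to 0.94 over the alternatives). Neighbours that start within about the same stretch of DNA thus had quite different fold changes, and the difference between them was not tested.

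Imp3, a protein that pairs U3 snoRNA with the precursor and the most abundant of the 18 genes by the mean of the 4 libraries, was at 161 and 173 FPKM in WT, against 181 and 189 FPKM in R111A. The R111A values were slightly above the WT values (log2 fold change 0.14, standard error 0.12, adjusted p = 0.35), but below them after rescaling to TPM (log2 fold change -0.19). With quantile normalization Imp3 was called higher (log2 fold change 0.35, adjusted p = 0.040, with a range from 0.040 to 0.81 over the alternatives). Imp4, its partner, was lower (log2 fold change -0.49, adjusted p = 0.0096). Nob1 encodes the endonuclease that makes the last cut at the 3′ end of 18S rRNA, and it was at 99.98 and 100.3 FPKM in WT, against 101 and 108 FPKM in R111A. The 4 libraries were nearly level (log2 fold change 0.06, standard error 0.12, adjusted p = 0.70), with a log2 fold change of -0.27 after rescaling to TPM.

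The remaining genes of this role differed along the same scale. The subcomplex that joins the nascent transcript early was lower in Heatr1 (log2 fold change -0.76, adjusted p = 0.0031), Nol11 (-0.64, adjusted p = 0.0043), Wdr75 (-0.49, adjusted p = 0.013) and Utp4 (-0.38, adjusted p = 0.031), while Wdr43 missed the threshold (-0.34, adjusted p = 0.14). Rcl1 (log2 fold change -0.56) and its GTPase partner Bms1 (-0.40) were lower, as was Tsr1 (-0.44), with adjusted p-values of 0.0056, 0.031 and 0.038. Utp4, Bms1 and Tsr1 lost their calls with median-of-ratios factors, quantile normalization and equal sums without cytosolic ribosomal proteins. Rrp12 (log2 fold change -0.36), Nol6 (-0.35), Utp20 (-0.28), Utp18 (-0.22) and Ltv1 (-0.11) did not pass, with adjusted p-values between 0.095 and 0.49, and the sign was positive in Ltv1 with median-of-ratios factors (0.03) and in Ltv1 and Utp18 with quantile normalization (0.13 and 0.01).

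Of the 12 genes of 60S assembly, 7 were lower (58.3%, against 32.1% of all genes tested), and the log2 fold changes of the 12 were negative on the deposited scale, as were those of 5661 of all 9831 genes, with a median of -0.46. Noc2l, the most changed of them and the most abundant by the mean of the 4 libraries, encodes a nucleolar protein that escorts pre-60S particles. It was at 222 and 226 FPKM in WT, against 135 and 123 FPKM in R111A. The groups were clearly separate (log2 fold change -0.79, standard error 0.12, adjusted p = 0.00095 by limma). Nol9 encodes a polynucleotide kinase that acts on a spacer of the precursor rRNA, and it was at 52.0 and 49.8 FPKM in WT, against 49.8 and 47.1 FPKM in R111A. R111A replicate 1 lay just below WT replicate 2, and no change was detected (log2 fold change -0.07, standard error 0.13, adjusted p = 0.66). The sign of Nol9 was positive with median-of-ratios factors, quantile normalization and equal sums without cytosolic ribosomal proteins (log2 fold changes 0.06, 0.12 and 0.02). With TPM it was called lower (log2 fold change -0.40, adjusted p = 0.025, with a range from 0.025 to 0.93 over the alternatives). Las1l, the endonuclease that acts with Nol9 on the same spacer, was lower (log2 fold change -0.55, adjusted p = 0.011).

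Bop1, Pes1 and Wdr12 form a single complex needed for 60S maturation. Wdr12 was lower by a log2 fold change of -0.70 (adjusted p = 0.014) and Bop1 by -0.63 (adjusted p = 0.0057), while Pes1 was at -0.12 (adjusted p = 0.41), and above 0 with median-of-ratios factors (0.01) and quantile normalization (0.11). Pes1 shares 20.4% of its 50-base stretches with 2 pseudogenes, which makes its value less certain. Rrp1b (log2 fold change -0.68), Nop16 (-0.64) and Rrs1 (-0.37) were lower, with adjusted p-values of 0.0026, 0.0030 and 0.046. Nop2, an rRNA methyltransferase, Wdr74 and Noc3l did not pass, with log2 fold changes of -0.34, -0.19 and -0.19 and adjusted p-values of 0.076, 0.20 and 0.34, and Wdr74 was at 0.05 with quantile normalization.

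The helicases unwind rRNA and snoRNA pairings during assembly, and 3 of 5 were lower (60%, against 32.1% of all genes tested), with a median log2 fold change of -0.59. Ddx21, the most abundant in every library, was at 320.45 and 283 FPKM in WT, against 175 and 181 FPKM in R111A. The R111A libraries were nearly equal and far below the lower WT library (log2 fold change -0.76, standard error 0.13, adjusted p = 0.0013). Ddx10 was at 56.5 and 59.2 FPKM in WT, against 26.7 and 33.0 FPKM in R111A. This was the largest change among the helicases, with no overlap (log2 fold change -0.94, standard error 0.15, adjusted p = 0.00088). Dhx33 was lower (log2 fold change -0.59, adjusted p = 0.0059), and Ddx18 missed the threshold (-0.25, adjusted p = 0.11). More than any other of the 54 genes, Ddx18 shares its sequence, with 55.9% of its 50-base stretches also present in 4 pseudogenes, so its value is uncertain. Over 10% of stretches were also shared in Npm1, Fbl, Nop56 and Pes1, at 24.3%, 19.0%, 18.6% and 20.4%.

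**Figure D2:**
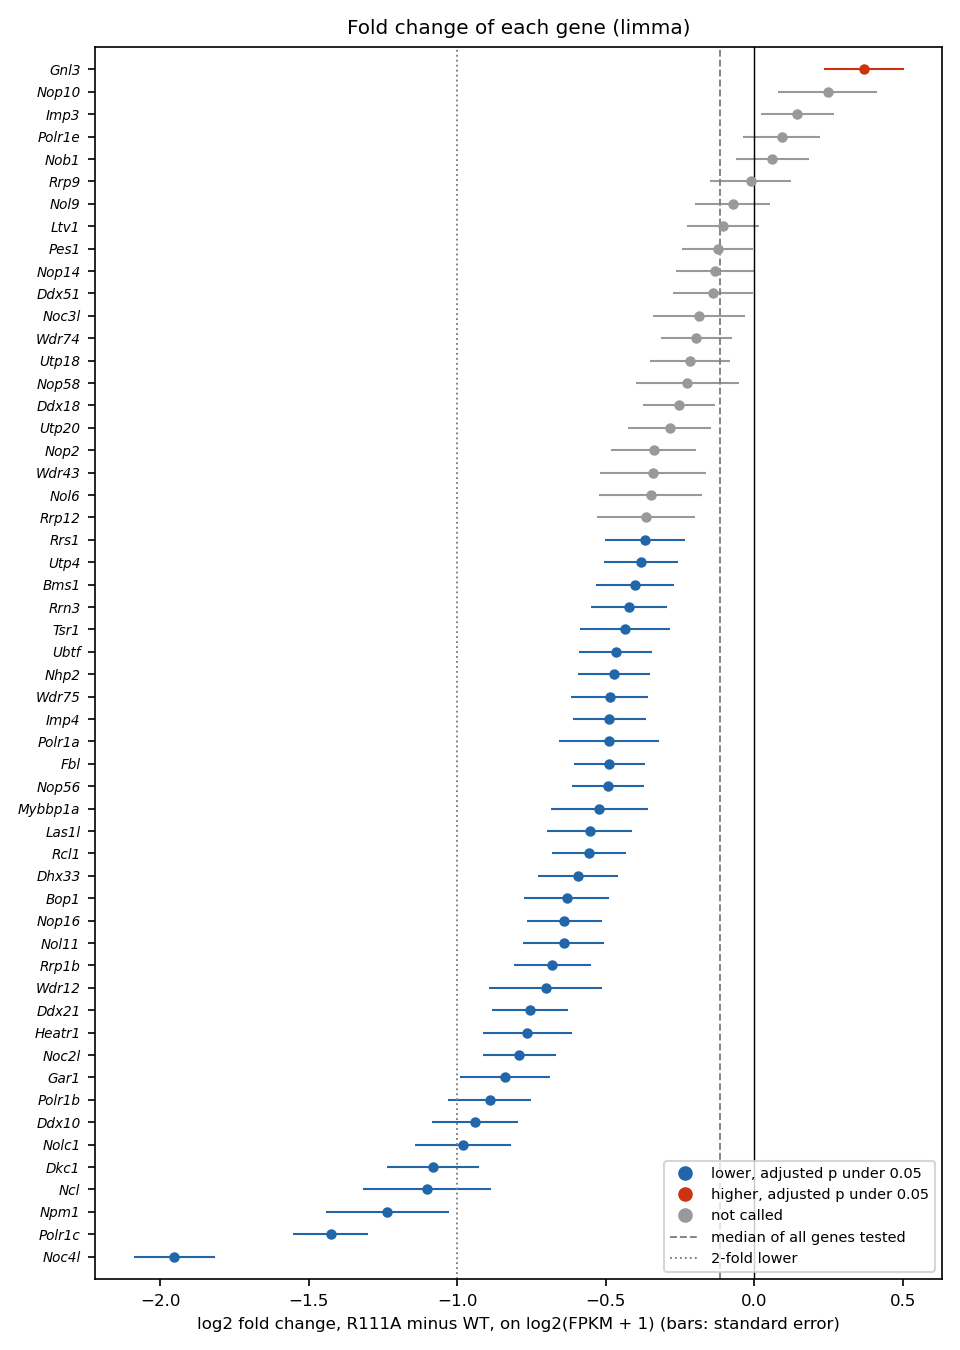
Log2 fold change of the 54 genes with its standard error (bars), ordered from the lowest to the highest, on the log2(FPKM + 1) scale of the deposited FPKM. The 33 genes called lower run from Noc4l at -1.95 to Rrs1 at -0.37, Gnl3 at 0.37 is called higher, and the dashed line marks the median of all genes tested at -0.12; rescaling to TPM turned the signs of Polr1e, Nop10, Imp3 and Nob1 negative, and other scalings turned those of Nol9, Rrp9, Nop14, Ltv1, Pes1, Utp18 and Wdr74 positive.

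As a group, the 54 genes took up a smaller part of the mRNA pool in R111A. Their FPKM summed to 12768 and 12375 in WT and to 7194 and 8629 in R111A, which is 1.59% and 1.48% of the summed FPKM of the WT libraries and 0.683% and 0.853% of the R111A libraries. As a share of the FPKM outside cytosolic ribosomal proteins the difference was smaller, with 2.54% and 2.41% in the WT libraries and 1.51% and 1.81% in the R111A libraries. Npm1 alone made up 36.7% of the group's sum in both WT libraries and 21.4% and 28.9% in R111A. Without Npm1, the WT shares were 1.01% and 0.937% and the R111A shares 0.537% and 0.606%, so the remaining genes were also lower in both R111A libraries.

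The proteins that these factors build into ribosomes went the other way at the mRNA level. The 79 cytosolic ribosomal protein genes took up 37.2% and 38.7% of the summed FPKM in WT and 54.7% and 52.8% in R111A. Of the 78 tested, 65 were higher (83.3%, against 21.2% of all genes tested), and the median over them all was 0.76 on the log2 scale. The largest change was in Rps19, at 3896 and 4535 FPKM in WT and 13979 and 14303 FPKM in R111A (log2 fold change 1.75, adjusted p = 2.3e-05), and the lowest log2 fold change was in Rpl15 (-0.36, adjusted p = 0.058). Their median was above 0 under every scaling tried, from 0.12 with quantile normalization, where 29 were higher and 8 lower (2321 and 2624 of all 9831 genes tested), to 0.90 with median-of-ratios factors.

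**Figure D3:**
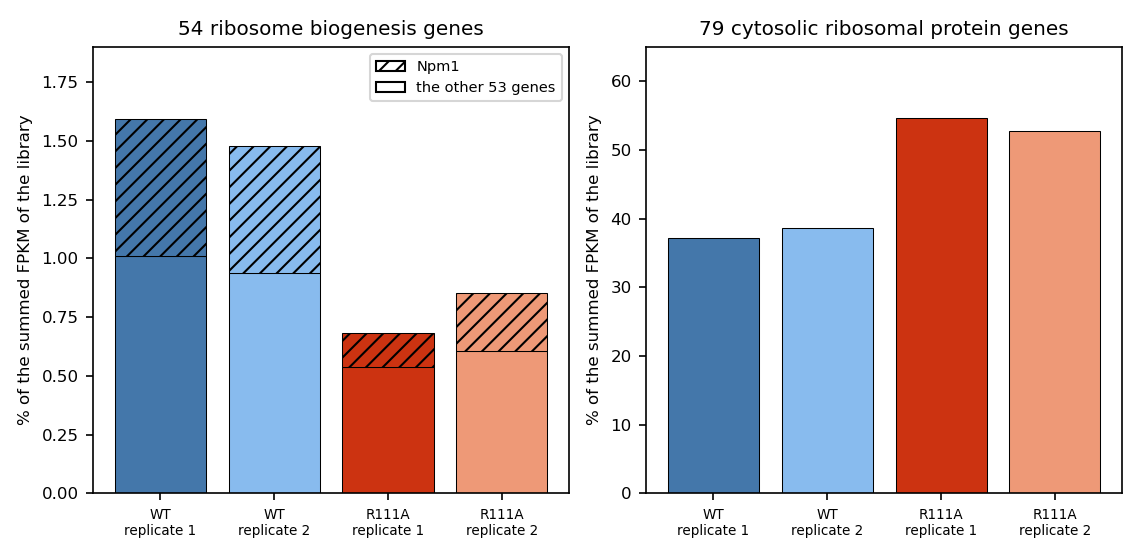
Share of the summed FPKM of each library held by the 54 ribosome biogenesis genes (left; hatched, Npm1) and by the 79 cytosolic ribosomal protein genes (right). The ribosome biogenesis genes hold 1.59% and 1.48% in WT and 0.683% and 0.853% in R111A, and the ribosomal protein genes 37.2% and 38.7% in WT and 54.7% and 52.8% in R111A.

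The size of the group's decrease depended on how libraries were scaled. The FPKM summed to 801475 and 836143 in WT and to 1053551 and 1012215 in R111A, and without cytosolic ribosomal proteins to 503311 and 512552 in WT and 476892 and 477583 in R111A. Rescaling to TPM, which equalizes the full sums, moved the median of all genes tested by -0.30, and median-of-ratios factors moved it by 0.12. With TPM, 49 of the 54 genes (90.7%) were lower, against 51.8% of all genes tested (25.9% against 17.8% by 2-fold), and the all-gene calls were 5096 lower and 1335 higher. With median-of-ratios factors, 25 of the 54 (46.3%) were lower, against 25.1% of all genes tested, and the all-gene calls were 2465 lower and 2567 higher, where the deposited FPKM gave 3152 and 2088.

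The remaining scalings gave smaller counts than the deposited FPKM. With equal sums over all genes other than cytosolic ribosomal proteins, which was added after the data were seen, 26 of the 54 (48.1%) were lower, against 27.2% of all genes tested. With quantile normalization, which forces the libraries to a common distribution, 17 of the 54 (31.5%) were lower, against 26.7% of all genes tested, which is near the background. The calls lost with median-of-ratios factors were those of Polr1a, Ubtf, Rrn3, Mybbp1a, Utp4, Bms1, Tsr1 and Rrs1, and with equal sums the same apart from Ubtf. By role, the numbers lower with TPM, median-of-ratios factors and quantile normalization were 5, 2 and 2 of the 6 RNA polymerase I genes, 3, 2 and 2 of the 4 nucleolar proteins, 8, 6 and 4 of the 9 snoRNP proteins, 16, 6 and 3 of the 18 small subunit genes, 12, 6 and 3 of the 12 genes of 60S assembly and 5, 3 and 3 of the 5 helicases. Quantile normalization lost the calls lost with median-of-ratios factors and also Nop56, Nhp2, Wdr75, Imp4, Rcl1, Las1l, Bop1 and Wdr12. Relative to the median of all genes tested, the median of the 54 genes was -0.35 with deposited FPKM, -0.38 with TPM, -0.34 with median-of-ratios factors and with equal sums, and -0.20 with quantile normalization.

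Leaving out a WT library lowered the number of calls, also over all genes tested, and changed the median little. Without WT replicate 1, 13 of the 54 genes were lower (24.1%, against 19.9% of all genes tested), and without WT replicate 2, 17 were lower (31.5%, against 19.7% of all genes tested), while the median log2 fold change was -0.44 and -0.47. Each of these fits takes its spread from the R111A pair and assumes that the single WT library varies alike. Over the 54 genes the R111A pair was wider than the WT pair (median absolute difference 0.17 against 0.07 on the log2 scale). Fits without an R111A library likewise take their spread from the WT pair. A filter at a mean of 10 FPKM, also added after the data were seen, compares the 54 genes with others of more similar level. It left the count at 33 of 54, against 35.8% of the 6038 genes tested.

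**Figure D4:**
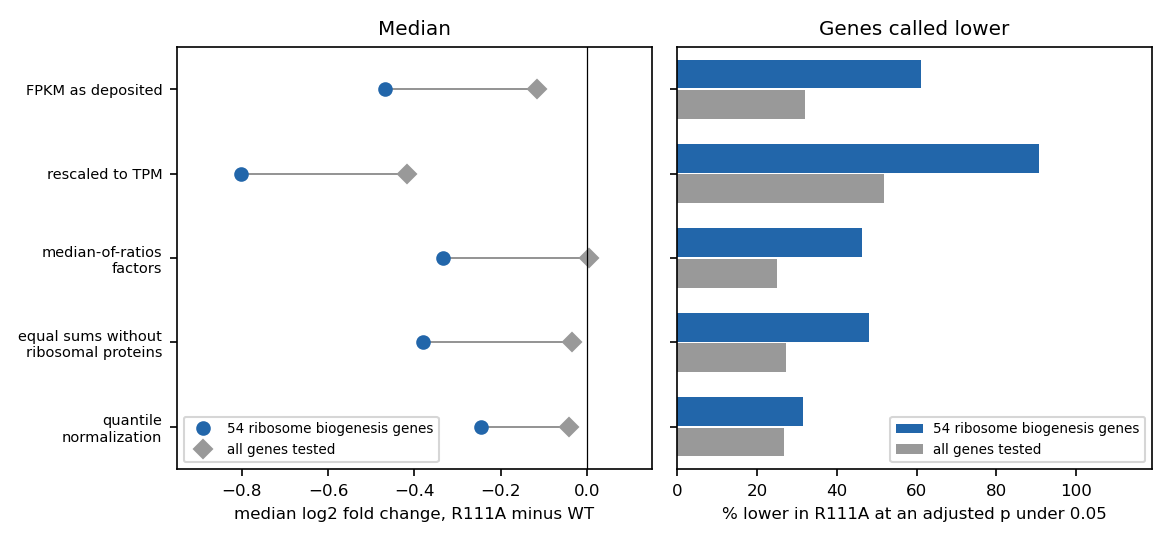
Left, the median log2 fold change (R111A minus WT) of the 54 ribosome biogenesis genes (blue circles) and of all genes tested (grey diamonds) under 5 scalings of the libraries. Right, the percentage of each called lower at an adjusted p under 0.05, from 90.7% against 51.8% with TPM to 31.5% against 26.7% with quantile normalization.

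Other genes of the pathway were read from a list of 97 further ribosome biogenesis genes. On the deposited scale 42 of the 97 (43.3%) were lower and 9 (9.28%) were higher at an adjusted p under 0.05, against 32.1% and 21.2% of all genes tested, and their median log2 fold change was -0.31, between that of the 54 genes and that of all genes tested. With TPM 64 were lower and 1 higher (51.8% of all genes tested lower), with median-of-ratios factors 31 and 12 (25.1%) and with quantile normalization 23 and 14 (26.7%). The lowest were Nip7, a 60S assembly factor (log2 fold change -1.73, adjusted p = 2.4e-05), and Nol7 and Tbl3 of the small subunit processome (-1.25, adjusted p = 0.00013, and -1.24, adjusted p = 9.5e-05). Nip7 was at 84.1 and 94.1 FPKM in WT, against 26.1 and 26.3 FPKM in R111A. The highest were Nop53 (log2 fold change 1.1998, adjusted p = 0.00091), Mdn1 (0.56, adjusted p = 0.010) and Utp25 (0.53, adjusted p = 0.0084). Nop53, a late 60S factor, was at 191 and 188 FPKM in WT, against 536 and 355 FPKM in R111A, so the pathway was not lower throughout.

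This was also visible within RNA polymerase I. Of 10 further genes of the polymerase and its factors, 3 were lower and 3 were higher (32.1% and 21.2% of all genes tested), with TPM 5 were lower and 0 higher by limma, and the median over the 10 was -0.09 on the log2 scale, -0.41 with TPM and 0.03 with median-of-ratios factors. The subunit genes Twistnb and Cd3eap were lower (log2 fold changes -0.80 and -0.50, adjusted p = 0.0049 and 0.010), as was Tcof1, the treacle gene (-0.78, adjusted p = 0.015). The subunit gene Znrd1 and the promoter factor genes Taf1a and Taf1d were higher (log2 fold changes 0.35, 0.44 and 0.49, adjusted p = 0.046, 0.041 and 0.015). Polr1d, whose product pairs with that of Polr1c in the enzyme, was at 237 and 241 FPKM in WT, against 284 and 208 FPKM in R111A. The R111A libraries lay on either side of the WT libraries, and no change was detected (log2 fold change 0.03, adjusted p = 0.91).

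Neighbouring machineries showed medians close to those of the 54 genes. The median log2 fold change was -0.37 over 21 genes of RNA polymerase III and its factors (10 lower, 47.6%, and 2 higher), -0.39 over 7 subunit genes of RNA polymerase II (2 lower, 28.6%), -0.39 over 5 subunits shared between polymerases (2 lower, 40%) and -0.43 over 12 genes of the RNA exosome, which trims precursor rRNA (8 lower, 66.7%). Over all genes tested 32.1% were lower, so the counts of RNA polymerase II and of the shared subunits were near or below that share. For the 77 mitochondrial ribosomal protein genes it was -0.46, with 47 lower (61.0%) and 2 higher. With TPM, median-of-ratios factors and quantile normalization, the numbers lower were 11, 3 and 1 of the 12 exosome genes, 13, 6 and 6 of the 21 RNA polymerase III genes and 70, 32 and 31 of the 77 mitochondrial ribosomal protein genes, 7, 1 and 1 of the 7 RNA polymerase II genes and 5, 2 and 2 of the 5 shared subunits. The shares of all genes tested were 51.8%, 25.1% and 26.7%, so several of these counts were at or below them. No test of a difference between the lists was made.

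Several of the 54 genes carry small nucleolar RNA genes in their introns, which polyA-selected libraries do not measure. In GENCODE annotation of GRCm38, 7 of them (Ncl, Gnl3, Nop56, Nop58, Dkc1, Wdr43 and Tsr1) host 21 snoRNA genes between them. Of these hosts 4 were lower and 1 was higher, close to the 61.1% lower of the whole list. Over all genes tested 32.1% were lower and 21.2% higher. In all, 14 of the 54 genes overlap another coding gene. Of those 10 were lower and 1 was higher, again beside 61.1% lower of the whole list and 32.1% of all genes tested. Their values could hold reads of the overlapping gene if strand was not used.

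Promoter sequence was examined because MYC with its partner MAX, which binds the E-box CACGTG, is a known activator of ribosome biogenesis genes. Both partners were read after their values had been seen. Myc was at 228 and 204 FPKM in WT, against 128 and 87.6 FPKM in R111A, with both R111A libraries lower and apart from each other (fold change on the log2 scale -1.02, standard error 0.18, adjusted p = 0.0019). Max was at 110.6 and 113 FPKM in WT, against 83.4 and 86.0 FPKM in R111A (log2 fold change -0.40, adjusted p = 0.023).

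RefSeq windows of GRCm38.p6, from 250 bases before to 50 bases after a transcript start, were matched for 48 of the 54 genes, without Rrs1, Bop1, Fbl, Nol6, Npm1 and Rrp12. CACGTG, which reads the same on both strands, was present in 13 of the 48 genes (27.1%), in 12.5% of the 8041 tested genes with a window and in 8.09% of all 27025 genes of the RefSeq promoter table. The related motif CACGCG, on either strand, was present in 12 of the 48 (25.0%), in 21.3% of the tested genes and in 10.5% of all. Median CpG counts were 22.5 per window for the 48 genes, 21 for the tested genes and 7 for all. A match is a string of letters and not a binding site.

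In 5 genes CACGTG lay before the start of the gene, and its surroundings are shown here because these are the windows in which a factor named above has its motif. Each is 30 bases, 5′ to 3′ on the strand of the gene, with the motif in capitals.
Imp4, chr1:34439696-34439725, plus strand, 121 bases before the start: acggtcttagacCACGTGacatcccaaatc
Nop2, chr6:125131811-125131840, plus strand, 60 bases before the start: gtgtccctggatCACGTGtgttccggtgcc
Nol11, chr11:107189407-107189436, minus strand, 43 bases before the start: cttgagcgttcgCACGTGgtctagactcca
Utp18, chr11:93885769-93885798, minus strand, 20 bases before the start: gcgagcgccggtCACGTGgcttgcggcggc
Rrn3, chr16:13780472-13780501, plus strand, 215 bases before the start: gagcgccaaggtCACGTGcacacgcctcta
Rrn3, chr16:13780639-13780668, plus strand, 48 bases before the start: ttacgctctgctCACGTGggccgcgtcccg

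Of these genes Imp4, Nol11 and Rrn3 were lower in R111A, and Nop2 and Utp18 did not pass the test. In the other genes with a match (Utp4, Ltv1, Utp20, Pes1, Mybbp1a, Tsr1 and Wdr43) the letters lay at or after the start. In Dhx33 they lay before the start used for its window but within the longest extent of the gene, and they are not shown. Among the 13 genes with CACGTG in the window, 7 were lower, with a median log2 fold change of -0.38. Among the 35 without it, 22 were lower, with a median of -0.49. For CACGCG the split went the other way, with 9 of 12 genes lower at a median of -0.58 with it and 20 of 36 at -0.41 without it. These counts are on the deposited scale, where 32.1% of all genes tested were lower. Neither difference was tested.

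Markers of cell state and of other cells moved with the same contrast. All 6 markers of resting naive T cells were higher in R111A at an adjusted p under 0.05 by limma, against 21.2% of all genes tested. Their summed level was 578 and 531 FPKM in WT and 1187 and 913 FPKM in R111A, led by Ccr7. Of 5 activation markers 3 were higher (Cd69, Tnfrsf9 and Nr4a1) and Cd44 was lower (21.2% and 32.1% of all genes tested). Their sums were 687 and 710 FPKM in WT and 1951 and 1819 FPKM in R111A, where Cd69 and Nr4a1 were the most abundant. Of 4 regulatory T cell markers Foxp3 and Ctla4 were lower (32.1% of all genes tested). No change was detected in Il2ra and Ikzf2 (log2 fold changes -0.11 and -0.35, adjusted p = 0.47 and 0.19 by limma). The sums over the 4 were 195 and 194 FPKM in WT and 141 and 147 FPKM in R111A, mostly Il2ra, which is also 1 of the activation markers.

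RNA of other cell types was low, and apart from CD8+ T cells it was higher in R111A. The sums over 4 B cell markers were 2.09 and 0.89 FPKM in WT and 5.12 and 4.46 FPKM in R111A, there mostly Cd79a, and those over 5 myeloid markers 0.68 and 0.12 FPKM in WT and 4.56 and 4.26 FPKM in R111A, there mostly Lyz2. Over 4 NK cell markers they were 0.98 and 0.85 FPKM in WT and 7.26 and 4.65 FPKM in R111A, led by Eomes. Over 4 erythroid markers they were 0.66 and 0.70 FPKM in WT and 12.7 and 12.9 FPKM in R111A, nearly all Hba-a1, with Hba-a2 and Hbb-bs listed at 0 in every library. The ribosomal protein gene Rps27 was also listed at 0 throughout, so a 0 in the table need not mean that the RNA was absent. The 2 CD8+ T cell markers summed to 7.31 and 6.76 FPKM in WT and 3.88 and 4.46 FPKM in R111A, mostly Cd8b1. The part of these shifts in the ribosome biogenesis results was not tested, and fewer cells in a growth state cannot be told apart from less of these mRNAs in each cell.

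With 2 libraries in each group, the smallest p (both sides counted) that exact permutation can reach is 0.333, so the adjusted p-values given here depend on the variance model that limma shares between genes.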

How the data were processed

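PolyA RNA-seq of 2 WT and 2 R111A libraries was used. The authors aligned reads to mm10 with Bowtie2 (2.4.4, per the submitters' processing notes), estimated expression with RSEM (1.2.28) and deposited FPKM for 16142 genes. Columns of sample values left unused numbered 0, and the authors' DESeq2 step on counts was not rerun. Groups and replicate numbers came from the labels. The test was limma 3.58.1 under R 4.3.3 (lmFit, eBayes with a trend, Benjamini-Hochberg adjustment) on log2(FPKM + 1), across the 9831 genes whose mean reached 1 FPKM. On that scale the fold changes of weakly expressed genes come out too small. A gene was called at an adjusted p under 0.05, with or without a 2-fold change. The procedure was tested on simulated data, with a simulation that replaced an earlier version after its result was seen. The test did not recover the smallest fold set there, which was larger than most fold changes of the 54 genes, so its sensitivity at their size is not known. The 54 genes, their roles and the other lists were chosen with earlier results of these data known. Library values are given for Zc3h12a, for all RNA polymerase I genes of the list, for the most abundant, the lowest and the highest gene by fold change of each other role, for the 5 lowest and 5 highest genes of the list and for those past 2-fold. The other genes are given by fold change, and Nop58, Myc, Max, Polr1d and the genes named from the comparison and marker lists were partly chosen after their values were seen. Positions are from RefSeq GRCm38.p6, overlaps, snoRNA genes and shared 50-base stretches from GENCODE vM21. The symbols Twistnb, Cd3eap and Znrd1 stand for Polr1f, Polr1g and Polr1h. Alternatives were pseudocounts of 0.1 and 5 FPKM, no filter or filters at 5 and 10 FPKM, other scalings, the replicate number as a term, eBayes without trend or robust, and each library left out. The lists were described and not tested as sets. Other steps used python 3.11.15 with numpy 2.4.6, pandas 2.3.3 and matplotlib 3.10.9.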

Additional observations from a re-analysis of the deposited data

How the results depend on the processing

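The median log2 fold change of the 54 genes was negative under all 16 alternatives. It was -0.80 with TPM, -0.33 with median-of-ratios factors, -0.25 with quantile normalization and -0.38 with equal sums without cytosolic ribosomal proteins, and between -0.48 and -0.44 without any single library. Relative to all genes tested it was -0.47 with no filter, -0.20 with quantile normalization, -0.29 with a filter at 10 FPKM and from -0.37 to -0.32 with a library left out. With no filter and with the filter at 10 FPKM, the genes compared changed and the 54 did not.

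The number of genes lower was 17 with quantile normalization and from 13 to 37 with a library left out. By 2-fold it was 14 with TPM (25.9%, against 17.8% of all genes tested), 3 with median-of-ratios factors (5.56%, against 6.23%), 3 with quantile normalization (5.56%, against 7.35%) and from 4 to 6 with a library left out. The number higher by limma was 0 with no filter, eBayes without trend or robust (1 at an unadjusted p under 0.05 in each), 0 with TPM (0 unadjusted), 2 with quantile normalization (4 unadjusted) and from 0 to 2 with a library left out. The cause of these differences was not tested.

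Signs turned with TPM in Polr1e (-0.23), Nop10 (-0.087), Imp3 (-0.19) and Nob1 (-0.27), and in Nol9 with median-of-ratios factors (0.061), quantile normalization (0.12) and equal sums (0.017). Rrp9, Nop14, Ltv1 and Pes1 also turned with median-of-ratios factors, these with Utp18 and Wdr74 under quantile normalization, and Rrp9 with equal sums, so that 44, 42 and 47 of the 54 genes stayed negative, against 49. Nop58 turned without R111A replicate 1 (0.037), and Rrp9 without WT replicate 2 (0.029) or R111A replicate 2 (0.12). These genes were not called on the deposited scale. Over 21 named genes and 16 alternatives, 300 values kept direction and side of the threshold, 25 lost the call, 4 gained it and 7 changed sign. The 21 include Zc3h12a, which is not one of the 54 and kept its direction and call under all 16.

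The replicate numbers did not mark pairs in the labels, and the deviations of same-numbered libraries correlated at 0.111 over 9831 genes. With the replicate block, 34 genes were lower and 1 higher, 5 lower by 2-fold. The table holds no read totals, so the precision set by depth is not known.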
